A study of Homo sapiens with 8 samples.

Results

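INPP4B, ITPKB and their relatives are enzymes that remove or add single phosphate groups on phosphoinositides, the signalling lipids of cell membranes, or on inositol trisphosphate, the soluble messenger that releases calcium. The set holds 8 genes: the phosphoinositide 4-phosphatases INPP4A and INPP4B, the 5-phosphatases INPP5D, INPPL1 and INPP5K, and the inositol trisphosphate 3-kinases ITPKA, ITPKB and ITPKC. Every array probe whose annotated symbol is one of these names was taken, which gave 10 of 47315 probes and 7 of the 8 genes. INPP5K had no probe listed under its symbol and was not analysed here. The family was chosen by function, but it was taken up because of the changes of INPP4B and ITPKB on these same arrays, so the changes of its members are given as a description, without p-values.

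The cells were A2058, an established line grown from a human melanoma metastasis. All 8 wells had been transfected with empty vector plasmid by Lipofectamine2000. Of these, 4 then received TGFβ1, a secreted cytokine that acts through SMAD transcription factors, in serum-free medium. The other 4, untreated by their titles, are called vehicle wells here. All 8 wells were the control arm of a larger plasmid experiment. Treatment lasted a day, at a TGFβ1 dose that the methods give only as one of a pair of values. The study used these arrays to ask which genes of the proliferative and invasive melanoma signatures respond to TGFβ, and both INPP4B and ITPKB stand in a proliferative list that it used. The wells were parallel platings of a single passage, and the spread between them is not that of independent cultures. One Illumina HT-12 array was run per well. The deposited log2 values are centred by gene and by sample, so a value says how a well stands against the other wells for the same probe. How strongly a gene is expressed, whether its probe is above background and whether 1 gene is more abundant than another cannot be read from them, nor can the presence of melanocytic markers.

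The lipid substrates link these enzymes into 1 pathway. Phosphoinositide 3-kinases make PtdIns(3,4,5)P3, from which INPP5D (SHIP1) and INPPL1 (SHIP2) take the 5-phosphate to leave PtdIns(3,4)P2, and INPP4A and INPP4B take the 4-phosphate of that lipid to leave PtdIns(3)P. The kinases of the ITPK family act instead on the soluble messenger, turning inositol trisphosphate, which opens calcium channels of the endoplasmic reticulum, into inositol tetrakisphosphate. INPP4B is known as a brake on AKT signalling in several epithelial cancers, whereas in some other tumours, melanoma among them, it has been described as active in growth through the kinase SGK3.

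The change in INPP4B rests on a single probe of 50 bases, with a GC content of 50%, on the minus strand of chromosome 4. It is shown because every INPP4B value below comes from its hybridisation. The sequence, in lower case throughout because no part of it is singled out, comes from the study's supplementary probe annotation.
INPP4B probe ILMN_2198878: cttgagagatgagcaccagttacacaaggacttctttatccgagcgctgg

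INPP4B mRNA was lower in every TGFβ1 well than in any vehicle well, 2.02-fold in the mean. The log2 values were 0.40, 0.63, 0.42 and 0.57 in vehicle replicates 1 to 4 and −0.52, −0.63, −0.44 and −0.43 in TGFβ1 replicates 1 to 4. The 2 groups lay far apart, with 0.83 between the lowest vehicle well and the highest TGFβ1 well, while the SD within a group was 0.11 for vehicle and 0.092 for TGFβ1 (n = 4 each). The log2 change was −1.01 (SE 0.08, 95% interval −1.18 to −0.84). Of the 47315 probes on the array, 28 had a lower change, and 118 (0.249%) had a larger change in either direction. Leaving out any 1 array kept the change between −1.05 and −0.97.

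ITPKB, the B isoform of the kinases that convert inositol trisphosphate, was higher under TGFβ1, in contrast to INPP4B. Its single probe read −0.39, −0.25, −0.11 and −0.20 in vehicle replicates 1 to 4 and 0.29, −0.10, 0.29 and 0.48 in TGFβ1 replicates 1 to 4. Of the TGFβ1 wells, 3 stood clearly above all vehicle wells, but TGFβ1 replicate 2 lay only 0.0071 above vehicle replicate 3, so the groups did not overlap but nearly met. The spread was wider among TGFβ1 wells (SD 0.24, n = 4) than among vehicle wells (SD 0.11, n = 4). The log2 change was 0.47 (SE 0.10, 95% interval 0.26 to 0.69), a 1.39-fold higher level. A higher change was measured for 438 probes of the array. Without TGFβ1 replicate 2 the change was 0.59, and without TGFβ1 replicate 4, the highest well, it was 0.39.

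The plot of the members' values by well shows how far these 2 probes stand from the remaining 8.

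**Figure D1:**
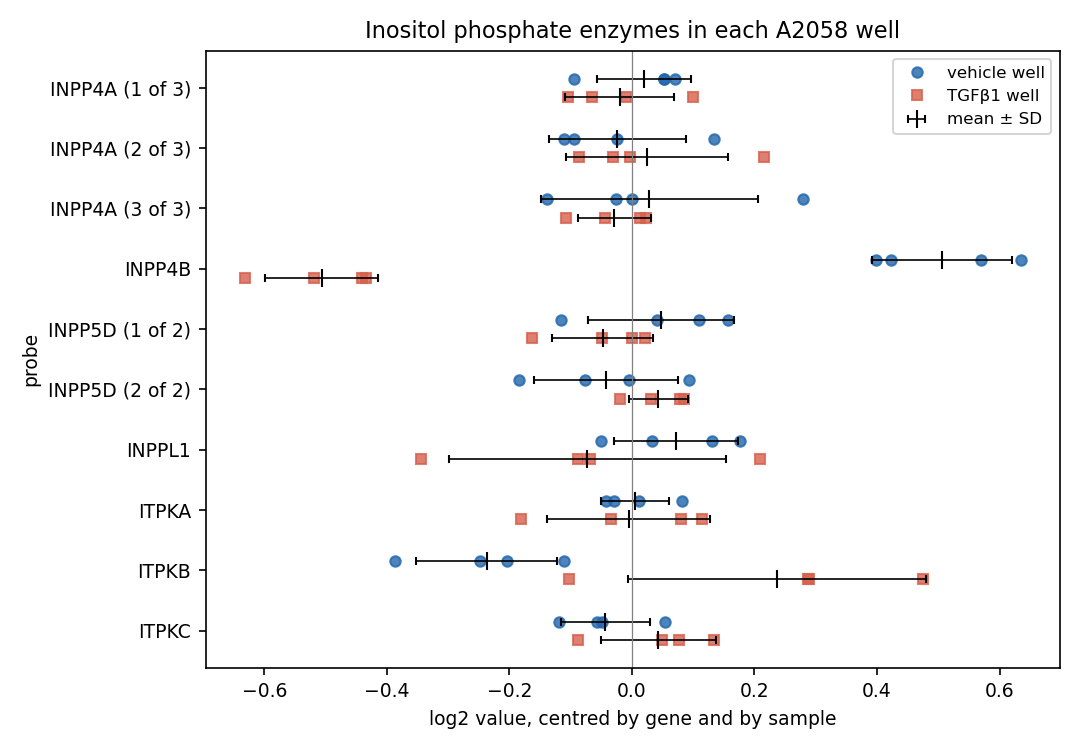
Log2 values of the 10 member probes in each well, centred by gene and by sample (horizontal axis), with 1 line per probe and a number where a gene has several probes. Circles are the 4 vehicle wells, squares the 4 TGFβ1 wells, and bars give mean ± SD. INPP4B separates the groups by 0.83, ITPKB by 0.0071, and in all other probes the groups overlap.

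INPP4A, the paralogue of INPP4B that removes the same phosphate from the same lipid, was read by 3 probes, and none of them was called. Their log2 changes were −0.040 (SE 0.08), 0.048 (SE 0.09) and −0.057 (SE 0.09). In the first probe the vehicle wells read 0.070, −0.094, 0.052 and 0.052 and the TGFβ1 wells −0.0098, 0.10, −0.10 and −0.066. The groups overlapped in all 3 probes, and the sign of the change was not the same among them. The mean of the 3 probes changed by −0.016 (95% interval −0.15 to 0.11). The probes are assigned to more than 1 RefSeq transcript of INPP4A, and the interval of each single probe included 0. The plot of changes with intervals shows the paralogues side by side.

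**Figure D2:**
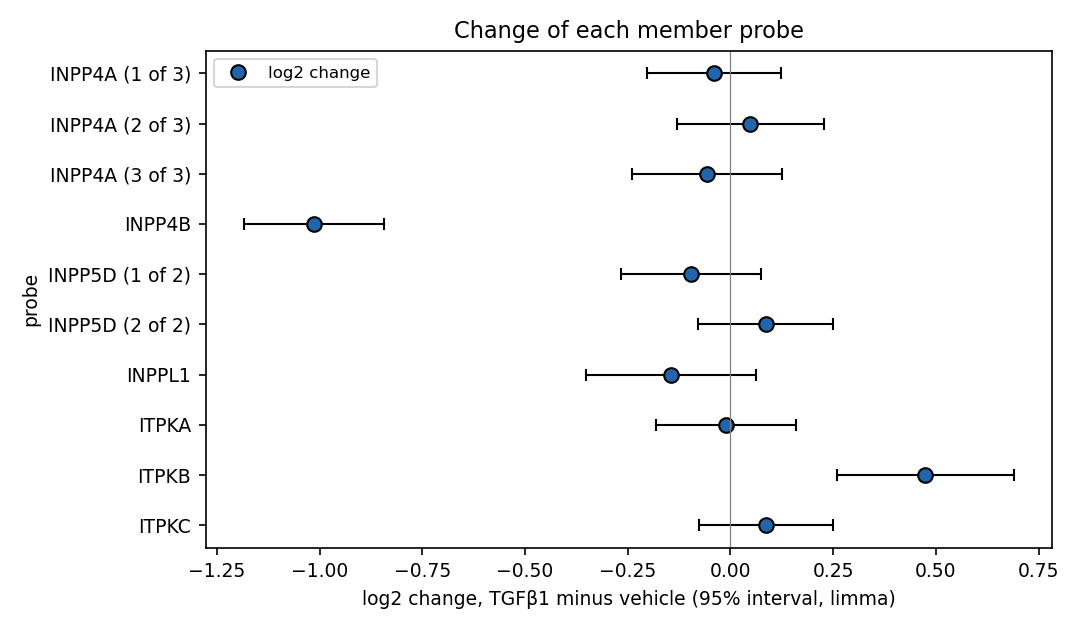
Log2 change of each member probe, TGFβ1 minus vehicle (horizontal axis), with its 95% interval from limma over 4 wells per group. Points are the changes and bars the intervals. INPP4B lies at −1.01, ITPKB at 0.47 and the other 8 probes between −0.15 and 0.086.

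The SHIP phosphatases, which act upstream of INPP4A and INPP4B, gave no called probe. INPP5D, best known from blood cells, had log2 changes of −0.096 (SE 0.08, 95% interval −0.27 to 0.074) and 0.086 (SE 0.08, 95% interval −0.079 to 0.25) on its 2 probes. The 2 probes of this gene thus differed in sign. Their mean changed by −0.0049 (SE 0.06). Leukocyte markers, listed because INPP5D is a blood cell enzyme, had 0 of 7 measured genes called by limma in either direction, against 5.7% of all genes. Centred values do not show whether these markers are expressed in the line, so nothing about INPP5D is read from this count. INPPL1, the SHIP enzyme of most other tissues, read 0.18, −0.050, 0.033 and 0.13 in the vehicle wells and −0.068, −0.088, −0.34 and 0.21 in the TGFβ1 wells. Both the lowest and the highest INPPL1 values came from TGFβ1 wells, and their SD was 0.23 against 0.10 among vehicle wells (n = 4 each). The change of −0.15 (SE 0.10, 95% interval −0.35 to 0.061) was thus measured with the least precision after ITPKB. It ranged from −0.24 without TGFβ1 replicate 4 to −0.055 without TGFβ1 replicate 3.

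Neither of the other kinases of the ITPK family was called. ITPKA, a neuronal isoform that also bundles actin, read −0.029, 0.011, 0.082 and −0.043 under vehicle and −0.18, 0.11, −0.034 and 0.080 under TGFβ1. Its change of −0.011 (SE 0.08, 95% interval −0.18 to 0.16) was the smallest in size of the 10 probes. ITPKC, the widely expressed isoform, read −0.058, −0.049, 0.054 and −0.12 under vehicle and 0.13, 0.078, 0.049 and −0.088 under TGFβ1. Of its TGFβ1 wells 2 lay above all vehicle wells, and the change was 0.086 (SE 0.08, 95% interval −0.076 to 0.25).

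Of the 10 member probes 1 was called higher and 1 lower in the fit over all probes, and the groups did not overlap in 2. Over the whole array 3.33% of the 47315 probes were called, 1.8% higher and 1.53% lower, and 7.26% had groups that did not overlap. The family was taken up for those 2 probes, so nothing is read from its share. The median log2 change was −0.025 over the 10 probes and −0.0018 over all probes. The median size of the change was 0.086 and 0.067. SAM, the test that the study's methods name, was run anew here, and this run also called INPP4B but did not call ITPKB.

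The wider pathway was taken from 8 lists with 92 symbols, of which 87 had a named probe, and here a gene is the mean of its probes. Among these 87 genes, 4 were higher and 5 were lower under TGFβ1 (limma, adjusted p under 0.05). Of all 20045 genes, 608 (3.03%) were higher and 535 (2.67%) were lower, 5.7% in all. The median change over the 87 genes was −0.011 and over all genes −0.0013. Most of the pathway was thus not called (78 of 87 genes), but neither were most genes of the array (18902 of 20045). The 9 pathway genes that were called lay in 5 of the lists. The lists were written with earlier results of these data known.

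The source and the receptors of inositol trisphosphate had no called gene. In this list, which holds phospholipase C enzymes and the calcium channels ITPR1, ITPR2 and ITPR3, 0 of 14 measured genes passed in either direction in limma. Changes ran from −0.16 to 0.14. The further inositol phosphate kinases, which act after the ITPK step or beside it, gave 0 of 8, and the largest change was that of ITPK1 at 0.26 (SE 0.09, adjusted p = 0.15). Phosphatidylinositol 4-kinases and phosphatidylinositol phosphate kinases, which build the substrate of phospholipase C, gave 0 of 11 with changes from −0.19 to 0.16.

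Among 9 soluble phosphatases 1 was lower. INPP1, which removes a phosphate from inositol bisphosphate on the way back to free inositol, changed by −0.37 (SE 0.10, adjusted p = 0.040). The wells read 0.075, 0.24, 0.17 and 0.25 under vehicle and −0.26, 0.094, −0.45 and −0.12 under TGFβ1, so TGFβ1 replicate 2 lay above 1 vehicle well and the groups overlapped. SYNJ2, a synaptojanin that takes the 5-phosphate off phosphoinositides, was the only 1 of 9 genes called in its list, at 0.33 (SE 0.06, adjusted p = 0.0036). Its vehicle wells read −0.24, −0.16, −0.092 and −0.18 and its TGFβ1 wells 0.18, 0.088, 0.19 and 0.21, without overlap. PIP4P2, a lysosomal phosphatase that takes the 4-phosphate off PtdIns(4,5)P2, was the only 1 of 12 called among 3-phosphatases and other 4-phosphatases, at −0.46 (SE 0.12, adjusted p = 0.035). Its vehicle wells ranged from −0.089 to 0.40 and its TGFβ1 wells from −0.53 to −0.041, and these overlapped.

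Phosphoinositide 3-kinases, whose product feeds the SHIP and INPP4 enzymes, had 1 of 12 genes higher and 1 lower. PIK3CG, the catalytic p110γ subunit that answers to G protein-coupled receptors, had the largest rise of the 87 genes. It read −0.56, −0.54, −0.47 and −0.32 under vehicle and 0.38, 0.21, 0.65 and 0.64 under TGFβ1, with a wide gap between the groups. The change was 0.94 (SE 0.10, adjusted p = 3.2e-05), or 1.92-fold, and both of its probes were called, the lower at 0.88. PIK3R3, a regulatory subunit of the class I kinases, changed by −0.26 (SE 0.07, adjusted p = 0.039). Its only probe did not pass over all probes (adjusted p = 0.093).

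Effectors of 3-phosphoinositides had 2 genes higher and 2 lower of 12. This list too was written with earlier results of these data known, so its count is not ranked against the other lists. PLEKHA1 and PLEKHA2 (TAPP1 and TAPP2), adaptors that bind PtdIns(3,4)P2, the lipid that INPP4B consumes, were both higher. PLEKHA1 changed by 0.37 (SE 0.07, adjusted p = 0.0063), with vehicle wells from −0.28 to −0.078 and TGFβ1 wells from 0.051 to 0.32, and both probes were called. PLEKHA2 changed by 0.26 (SE 0.07, adjusted p = 0.029), on 2 of its 4 probes (0.44 and 0.66 against −0.045 and 0.0014). The 2 kinases of the SGK family that were listed were lower. SGK3, which is recruited to endosomes by PtdIns(3)P, the product of INPP4B, read 0.22, 0.23, 0.27 and 0.15 under vehicle and −0.19, −0.27, −0.20 and −0.21 under TGFβ1. Its change was −0.43 (SE 0.06, adjusted p = 0.00029), with 2 of 3 probes called, at −0.81 and −0.42, and the third at −0.065. SGK1, a relative of SGK3 induced by glucocorticoids and growth factors, had the largest fall of the list, at −0.82 (SE 0.06, adjusted p = 1.4e-06). It was called on 3 of 4 probes, at −1.05, −1.16 and −1.08, while the fourth stood at 0.011. AKT1, AKT2 and PDPK1, the kinases best known as readers of PtdIns(3,4,5)P3, stood at −0.011, 0.058 and 0.051 and were not called (adjusted p = 0.98, 0.81 and 0.82). These 3 and ITPK1 were singled out after their values were seen.

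The calls in these lists were of unequal firmness. PIK3CG, SGK1, SGK3, PLEKHA1 and SYNJ2 kept their call without any 1 of the 8 arrays and were also called by SAM. The other 4 were not called by SAM and lost their call without some arrays. INPP1 lost it without vehicle replicates 2, 3 or 4 or TGFβ1 replicates 1 or 3 (adjusted p up to 0.11) and PIP4P2 without vehicle replicates 1, 2 or 4 or TGFβ1 replicates 1 or 2 (up to 0.11). PLEKHA2 lost it without vehicle replicates 1, 2 or 4 or TGFβ1 replicates 3 or 4 (up to 0.095), and PIK3R3 kept it only without vehicle replicate 1 (up to 0.11 without the others).

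**Figure D3:**
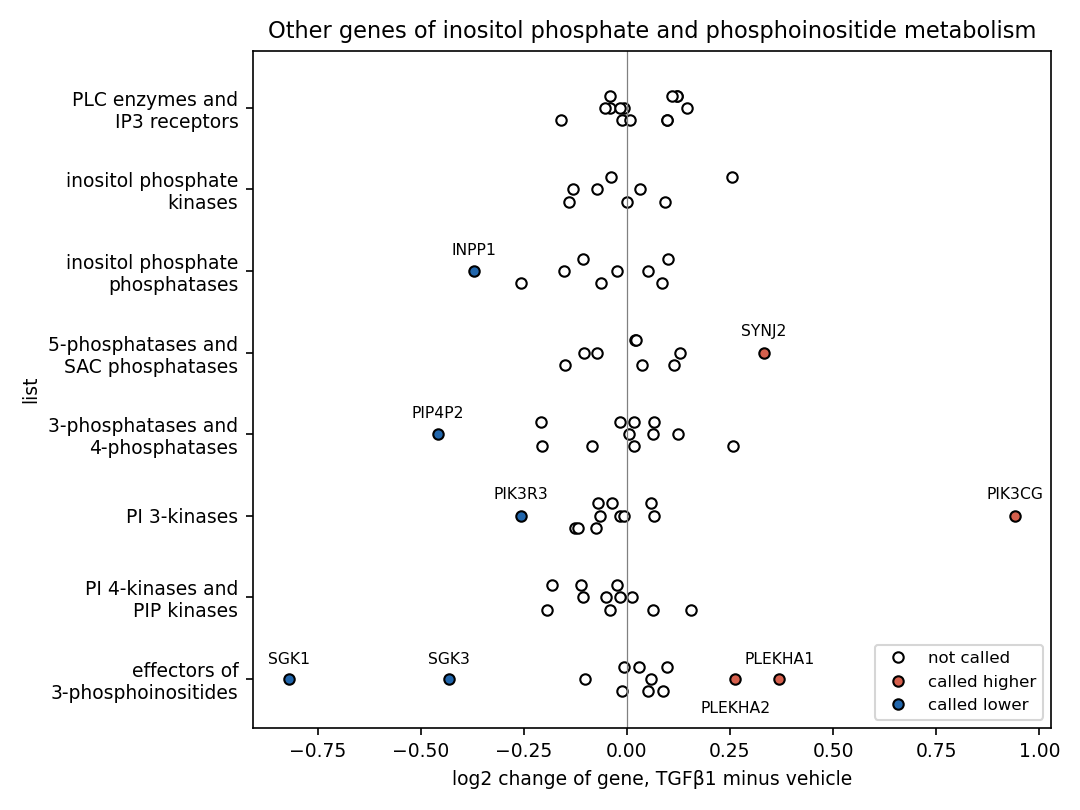
Log2 change, TGFβ1 minus vehicle, of the 87 further pathway genes (horizontal axis), 1 point per gene and 1 line per list, with small vertical offsets to separate points. Filled and named points passed limma at an adjusted p of 0.05 over all genes, 4 higher and 5 lower. PIK3CG at 0.94 and SGK1 at −0.82 lie farthest out.

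The genes whose values ran closest to INPP4B over the 8 wells were found by the root mean square difference in log2 value, the rule being the 3 smallest among 19945 genes. These were SCARA5, a scavenger receptor, at 0.094, HOXB8, a homeobox factor, at 0.10 and MYC, a growth-driving transcription factor, at 0.11, where the median over all genes was 0.52. SCARA5 changed by −1.02, HOXB8 by −0.92 and MYC by −0.87. The genes closest to ITPKB were SOX9, a transcription factor of neural crest and cartilage, at 0.096, SCARNA13, a small Cajal body RNA, at 0.10 and TNIP1, an inhibitor of NF-κB signalling, at 0.11, against a median of 0.30. In all 3, as in ITPKB, TGFβ1 replicate 2 was the lowest of the TGFβ1 wells, at −0.00048 in SOX9, 0.098 in SCARNA13 and 0.029 in TNIP1. The 3 genes were picked for nearness to ITPKB over these same wells, so the choice itself favours a shared low well. These distances are descriptive, since all 8 wells share 1 experiment and every gene with a change of like size comes near. Of the melanocytic markers, which were checked beside INPP4B, 2 of 5 measured (MITF at −0.39 and SOX10 at −0.35) were called lower and 0 higher. Over all genes 2.67% were called lower and 3.03% higher. The marker list is short, and nothing is read from its share. MLANA at −0.23, TYR at −0.17 and PMEL at 0.053 were not called, and PMEL differed in sign from the others. The mean over these 5 markers lay between 0.073 and 0.19 in vehicle wells and between −0.17 and −0.076 in TGFβ1 wells. Their part in the change of INPP4B was not tested.

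Promoter windows of 300 bases, from 250 before to 50 after an annotated start, were read from RefSeq (GRCh38.p14) for all 8 genes, 16 windows in all. They were searched on both strands for CAGAC, a SMAD-binding element, TGANTCA, the AP-1 site, and the E-boxes CATGTG and CACGTG, which MITF can bind. No 2 matches overlapped in the INPP4B or ITPKB windows. CAGAC was found in 8 of the 16 windows, against 45.3% of 35116 windows of the same length, and TGANTCA in 0, against 7.71%. INPP4B has 6 annotated starts. CAGAC lay in 3 of its windows, CATGTG in 2 and CACGTG in 1, and neither E-box was in a window of any other member. Over the 16 member windows CATGTG was thus in 2, against 11.1% of all windows, and CACGTG in 1, against 7.26%. INPP4B has the most windows of any member, and some of them overlap, so it offers the most places for a match. Nothing particular to INPP4B is read from these counts. The single ITPKB window held CAGAC at 2 places. The stretches of 30 bases below carry these letters in capitals, and are shown because INPP4B and ITPKB were the called members. They are a selection: the INPP4B window shown is the only one of its 6 with CAGAC and both E-boxes. Matches in its other windows and the other ITPKB place are not printed. A match in letters is no evidence of binding, and the arrays do not say which INPP4B start these cells use. The first 3 come from the same INPP4B window, minus strand, at −159, −124 and −54 bases from the start, and the fourth from ITPKB, minus strand, at −167 bases from the start.
INPP4B chr4:142405588-142405617, CATGTG: aggtttctgagcCATGTGtgcatagtcacg
INPP4B chr4:142405553-142405582, CAGAC: gagctgggatctCAGACcagtaaagacttg
INPP4B chr4:142405483-142405512, CACGTG: tcagctccacagCACGTGacttcctatttc
ITPKB chr1:226739432-226739461, CAGAC: tgagttcaacccCAGACaggctcacaactt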

How the data were processed

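Illumina HT-12 arrays were run on RNA from 8 wells of A2058 cells. The authors quantile normalised the arrays in BASE, removed control probes, and in MeV took log2 and centred by gene and by sample, and these log2 values were deposited. The log base is known from the methods only. Each of the 47315 probes averaged 0 over the 8 arrays within 1.6e-07, and array SDs were 0.12 to 0.16. No level or detection value is kept, so dim probes could not be filtered. Groups came from the sample titles.

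A gene symbol from the platform annotation was unique for 30105 probes, 8 had several and 17202 had none, giving 20045 genes. The groups were fitted in limma 3.58.1 (lmFit, eBayes; R 4.3.3) per probe and per gene (mean of its probes), with Benjamini-Hochberg adjustment over all probes or all genes and a threshold of 0.05. With 4 arrays per group, their number limits the precision. The code was checked on simulated data.

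The members, the lists and the rules were chosen with earlier results of these data known. Named genes are all members, up to 3 called genes per direction in each list, and the 3 genes nearest to INPP4B and to ITPKB. ITPK1, AKT1, AKT2, PDPK1 and the measured melanocytic markers were named outside this rule. Alternatives were SAM over 70 labellings at a median of 10 false positives, 2 other scalings, array weights, a threshold of 0.01, a replicate block, leaving out each array, and, for genes, only the most variable probe. Calling members by gene was added after seeing the data. P-values measure only the spread between parallel wells. Figures used Python 3.11.15 and matplotlib 3.10.9.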

Additional observations from a re-analysis of the deposited data

Results flagged for a closer look

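In 20 groups of 4 wells, a member probe in a treatment, 1 had a well far from the others. In the INPP4A probe ILMN_1652647, vehicle replicate 2 read −0.094 while the other vehicle wells read 0.052, 0.052 and 0.070, a gap of 0.888 of the whole range, past Dixon's limit for 4 values. Chance passes this limit in about 1 of 20 groups.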

How the results depend on the processing

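INPP4B was called lower under all 14 alternatives and ITPKB higher under 13, the exception being SAM, under which 0 member probes were called higher. The other 8 member probes were called under none of the 14. The change of INPP4B ranged from −1.16 under repeated quantile normalisation to −0.97 without 1 array, and that of ITPKB from 0.39 to 0.59. SAM called 377 probes lower (724 in limma), 297 genes lower (535) and 2 pathway genes lower (5). At an adjusted p under 0.01, 567 probes were higher (852) and 392 lower, 360 genes were higher (608) and 257 lower, and 2 pathway genes were lower. The titles give both groups the same replicate numbers, but same-numbered wells did not deviate together over all probes (correlations of −0.016, 0.026, −0.015 and −0.0039). A pairing that touches only some probes would not show in these correlations. With the replicate block 3 pathway genes were lower, 817 probes were higher and 688 lower, and no member's call changed. Leaving out 1 array gave 2 to 4 pathway genes lower. Calling the members by gene gave the same 1 higher and 1 lower. No background, dim-probe or slide alternative could be run on centred values, and expression below the background of a probe would not show.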
